A study of Mus musculus with 57 samples.

Results

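The genes described here encode splicing factors: the SR proteins, the heterogeneous nuclear ribonucleoproteins (hnRNPs), the Snrp proteins of the small nuclear ribonucleoproteins (snRNPs) and the SF3 and U2AF factors that work with the U2 snRNP. They were taken by symbol, as every gene of the table whose name begins with Srsf or Sfrs and a digit, Hnrnp or Hnrp, Sf3a or Sf3b, Snrp, or U2af. This gave 53 of the 10565 genes in the table: 11 SR genes, 20 hnRNP genes, 11 snRNP genes and 11 SF3/U2AF genes. The table uses some older names, so Sfrs18 is the gene now called Pnisr, Hnrpdl is Hnrnpdl and Hnrpll is Hnrnpll. The rule uses names and no measured value.

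The cells were wild-type T helper 2 (Th2) cells from C57BL/6 mice aged 8 weeks, and all of them received the same treatment. Splenic CD4+ T cells were activated through CD3 and CD28 with IL-4 and an antibody against IFNγ, received IL-2 after 2 days, were cultured for 5 days and were then restimulated through CD3 and CD28. The 56 cells were captured singly on a Fluidigm C1, a microfluidic instrument, and form sets T1 (8 cells) and T2 to T5 (12 cells each), whose meaning the labels do not give. The number of mice is not stated, so the 56 cells counted as 1 sample with no test between them, and the bulk sample made from pooled cells was not used here.

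Splicing removes introns from pre-messenger RNA. The U1 snRNP recognises the start of an intron, U2AF the end of it, and the U2 snRNP with its SF3A and SF3B complexes the branch site, while a ring of Sm proteins forms the core of most spliceosomal snRNPs. SR proteins mostly bind exons and favour their inclusion, and hnRNPs often oppose them, so the balance of both families is known to set which exons a T cell keeps, as in the CD45 transcripts that change on activation.

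The values are TPM, that is, the abundance of a transcript as a part of the whole of its cell. They account for transcript length, so levels of different genes can be set side by side. The authors rounded them to whole numbers. The sequencing depth of each cell is unknown, and a value of 0 is reported as listed at 0. Between 2679 and 8396 genes were detected (1 TPM or more) per cell, with a median of 4743.5. The labelled identity held for the T cell and Th2 markers: Cd3d, Cd3e, Cd2, Gata3 and Ecm1 were detected in all 56 cells and Il4 in 54, although Cd4 itself was detected in 37. Of the markers of other cells that the table holds, Cd8b1 was detected in 1 cell, Alas2 in 2, Cpa3 in 5 and the B cell and antigen-presentation gene Cd74 in 32. Cell 2 of set T3 (cell T3_2) stood apart from the rest in many splicing factor genes. Results that rest on it are given with and without it where both were taken.

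The SR genes covered a broad range of levels. Srsf2, which encodes the SR protein used as the marker of nuclear speckles, had the highest mean at 917 TPM ± 609 (SD over 56 cells), with values from 17 to 2854 and a median of 702.5. Srsf7 followed at 864 TPM ± 479, with a range from 24 to 2418 and a median of 807. Both were detected in every cell, and their spreads overlapped almost fully. Srsf3, the smallest SR protein and an export adaptor for messenger RNA, averaged 333 TPM ± 204 (2 to 910, median 290). Srsf5 averaged 272 TPM ± 245 (1 to 1175, median 233.5). These last 2 genes also overlapped through most of their range. Srsf1, a founding member of the family, lay lowest of the 11 at 36.6 TPM ± 47.4, with values from 0 to 184, a median of 18 and detection in 47 cells. Srsf11, Srsf6, Srsf10, Srsf9, Srsf4 and Sfrs18 had means between 45.3 and 207 TPM. Srsf4 was listed at 0 in most cells: its median was 0, it was detected in 23 cells, and its highest value was 709 TPM.

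Among the hnRNP genes, Hnrnpc, which encodes a protein that binds uridine tracts, had the highest mean of all 53 genes at 1009 TPM ± 587, with values from 15 to 2772 and a median of 872.5. Hnrnpk, which encodes a binder of cytidine-rich RNA, averaged 570 TPM ± 364 (0 to 1979, median 498.5). Hnrnpa2b1 averaged 521 TPM ± 268 (49 to 1558, median 482). Hnrnpk and Hnrnpa2b1 did not differ beyond their spread. Over all 56 cells, Hnrnpa2b1 was the only one of the 53 genes whose lowest cell stayed above 24 TPM. This rested on cell T3_2. Without it other genes did so too, among them Snrpb (lowest 198 TPM), Snrpe (180), Hnrnpc (160) and Hnrnpk (75). Hnrnpab averaged 392 TPM ± 291 (0 to 1627, median 312.5). Hnrpll, the regulator known for the switch of CD45 isoforms in activated T cells, was lower, at 41.6 TPM ± 98.0 with a median of 7.5. It was detected in 38 cells and reached 681 TPM in cell 3 of set T5. Its paralogue Hnrnpl, a binder of CA repeats, was detected in all 56 cells at 112 TPM ± 68.0 (4 to 400, median 99). The means of Hnrnpa3 and Hnrnpa1 were 6.82 and 2.196 TPM, and they were detected in 23 and 11 cells.

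Transcripts of several members hold stretches that also occur in other annotated genes, and how a pipeline counts reads from such stretches can change a level. The share of a gene's distinct 32-base words that also occur in transcripts of another gene was measured in the GENCODE M21 annotation of GRCm38. It was 29.8% for Hnrnpa1, with 9 other genes each holding 5% or more of its words, and 28.02% for Hnrnpa3, with 24 such genes. It was higher for Snrpf at 91.9%, Hnrnpf at 66.0%, Sf3b4 at 50.8%, U2af1l4 at 49.2% and Srsf4 at 40.9%. In all, 14 of the 53 genes shared 20% or more of their words, against 13.5% of the genes in the table, and the median share was 7.34% against 1.92%. The others were Snrpa, Hnrnpab, U2af1, Srsf2, Hnrnph2, Hnrnpk and U2af2. The sources used here do not say how the pipeline treated such reads, so the levels of these 14 genes are uncertain.

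As a class the Snrp genes had the highest median level, and 7 of the 11 encode the Sm ring. Snrpb, which encodes the B protein of the Sm ring, averaged 938 TPM ± 601 (7 to 3369, median 902.5). Snrpe averaged 721 TPM ± 349 (0 to 1598, median 685) and Snrpd2 693 TPM ± 360 (0 to 1601, median 678). These values of Snrpe and Snrpd2 are alike within their spread. Snrpd1 followed at 483 TPM ± 353 (4 to 1470, median 398). Snrpd3 averaged 342 TPM ± 334 (0 to 1615, median 311). Snrpg averaged 253 TPM ± 175 (0 to 806, median 222). The ring holds 1 copy of each protein, yet mean transcript levels within it ranged from Snrpf at 187 TPM ± 110 (0 to 399, median 167.5) to Snrpb, and the ranges of all 7 genes overlapped. Of the U2-specific proteins, Snrpa1 was at 586 TPM ± 509 (0 to 2803, median 478) and Snrpb2 at 149 TPM ± 119. Of the U1-specific proteins, Snrpa was at 151 TPM ± 164 and Snrpc at 14.2 TPM ± 17.9.

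Sf3b5, the smallest SF3B subunit, led the SF3/U2AF genes at 407 TPM ± 299 (6 to 1176, median 365.5). Sf3b2 averaged 218 TPM ± 225 (5 to 1182, median 157). Sf3b1, the large subunit that contacts the branch site, averaged 200.4 TPM ± 142 (10 to 619, median 168.5). Sf3b3 at 113 TPM ± 170 and Sf3b4 at 29.5 TPM ± 35.1 were lower, with medians of 40.5 and 11. The 3 subunits of SF3A, which form a trimer, differed in mean and median level, though their ranges over cells overlapped (0 to 962, 0 to 448 and 0 to 103 TPM for Sf3a3, Sf3a1 and Sf3a2). Sf3a3 averaged 254 TPM ± 277 (median 127, detected in 51 cells), Sf3a1 61.8 TPM ± 96.7 (median 18.5, 43 cells) and Sf3a2 8.54 TPM ± 18.1 (median 1, 29 cells). The 2 subunits of U2AF were both low: U2af1 averaged 11.9 TPM ± 15.5 (0 to 64, median 5.5) and U2af2 10.48 TPM ± 19.8 (0 to 116, median 4.5). U2af1l4, a relative of U2af1, was listed higher at 109 TPM ± 161 (median 24), but 49.2% of its words are shared with other genes.

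By class, the median over genes of the mean level was 342 TPM for the snRNP genes (483 for the Sm ring alone), 109 for SF3/U2AF, 107 for SR and 103 for hnRNP genes, against 17.8 for all genes of the table. The SF3/U2AF value depended on how it was taken. When the median over cells replaced the mean, it was 24 TPM, with SR and hnRNP genes at 88 and 92 and snRNP genes at 311. Without the genes that share 20% or more of their words it was 200.4 TPM, with SR, hnRNP and snRNP genes at 107, 113 and 483. In every cell, 18 of the 53 genes (33.96%) were detected, against 3.77% of all genes in the table. They were 6 SR, 7 hnRNP, 2 snRNP and 3 SF3/U2AF genes. Detection rises with level, so this share is read beside the higher level of the members. The low snRNP count traced to a single cell: without cell T3_2, 7 of the 11 snRNP genes and 25 of the 53 (47.2%) were detected in every cell, against 5.25% of all genes.

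**Figure D1:**
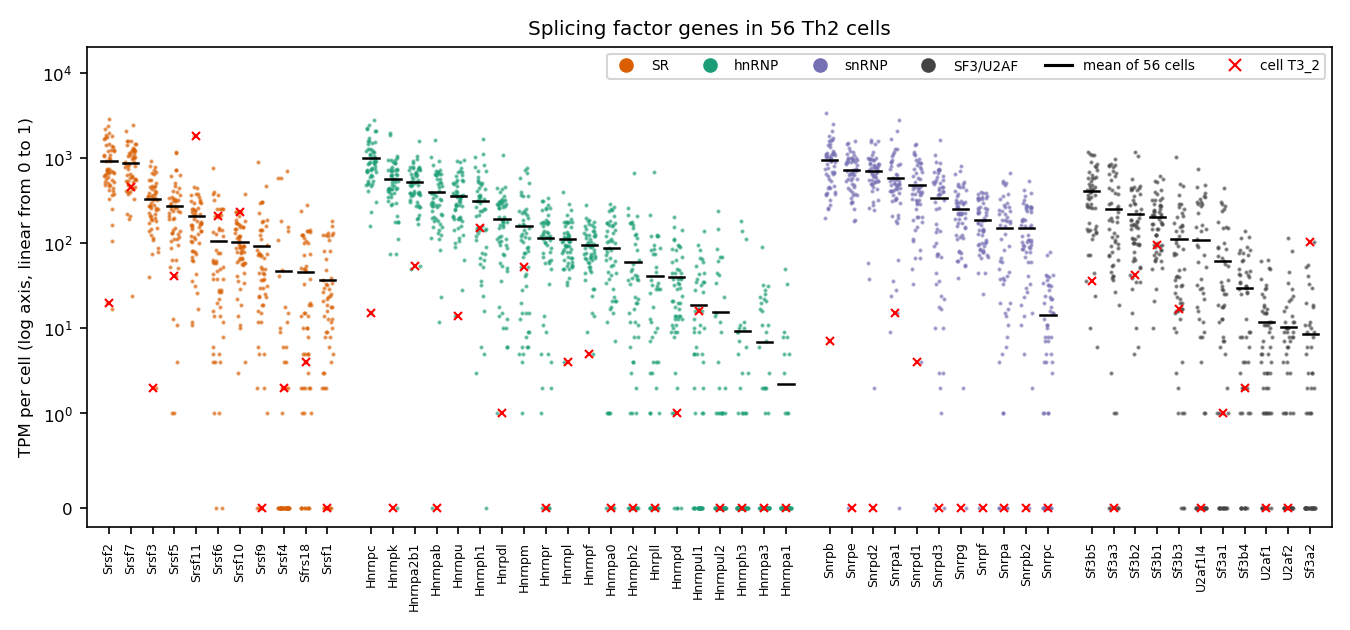
TPM of each of the 53 genes (horizontal axis, by class and falling mean) in each of the 56 cells (points), on a vertical axis that is logarithmic above 1 TPM and linear below it; black bars are means and red crosses cell T3_2. The snRNP genes sit mostly above 100 TPM, and the crosses lie at or near 0 for nearly all of them while Srsf11 and Sf3a2 have their highest values in that cell.

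Most splicing factor genes varied less from cell to cell than other genes of like level. Variation was measured as the squared coefficient of variation (CV2) on a log2 scale, minus its running median over the genes nearest in mean TPM. A value above 0 thus means more spread than like genes, and values above 1 or below -1 were called. The measure could be made for 7871 genes detected in at least 10 cells, and all 53 splicing factor genes were among them. Of the 53, 41 lay below 0, 21 (39.6%) lay below -1 against 15.1% of all genes, and 1 lay above 1 against 13.1% of all genes. The median was -0.81 for snRNP, -0.61 for hnRNP, -0.52 for SF3/U2AF and -0.42 for SR genes, against 0 for all genes. The order of the classes was not stable. By the SD of log2(TPM + 1) the medians were -0.30, -0.53, -0.30 and -0.73 in the same order, and the hnRNP median was -0.95 without set T3 and -0.96 without set T5. Below -1 lay 4 of 11 SR, 8 of 20 hnRNP, 4 of 11 snRNP and 5 of 11 SF3/U2AF genes, so each class held a like share.

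The most even genes for their level were Hnrnpl at -2.65, Hnrnpf at -2.62 and U2af1 at -2.42, with Snrpc beside them at -2.41. Hnrnpf, which encodes a binder of G tracts, was detected in all 56 cells at 94.2 TPM ± 54.8 (5 to 283, median 85). In Hnrnpl the middle part of the cells, from the first to the last quartile mark, spanned 65.5 to 131 TPM. In U2af1 the same span was 1 to 15.2 TPM. Its coefficient of variation, 1.30, was above the median of 1.01 for the 53 genes, so it was even only beside genes of like level. Srsf10, which encodes an SR protein that represses splicing when dephosphorylated, was the most even SR gene at -2.08, with 103 TPM ± 71.6 (3 to 378, median 88). Snrpf at -1.84 and Snrpg at -1.09 were the Sm ring genes below -1.

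Srsf4 was the most variable gene at 1.31, followed by Hnrnph3 at 0.44 and Snrpa1 at 0.41. Hnrnph3 averaged 9.36 TPM ± 33.1, was listed at 0 in 36 cells and reached 180 TPM in cell 2 of set T1. Both Srsf4 and Hnrnph3 were listed at 0 in most cells and high in a few. Snrpa1 was at 0 in 1 cell and reached 2803 TPM in cell 3 of set T4. The call for Srsf4 depended on the measure, since it was -0.02 when spread was taken as the SD of log2(TPM + 1). On that measure 12 genes lay below -1 and 0 above 1. Its unit differs from that of log2 CV2, and the share of all genes beyond these limits was not taken. These counts thus cannot be set against other genes.

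**Figure D2:**
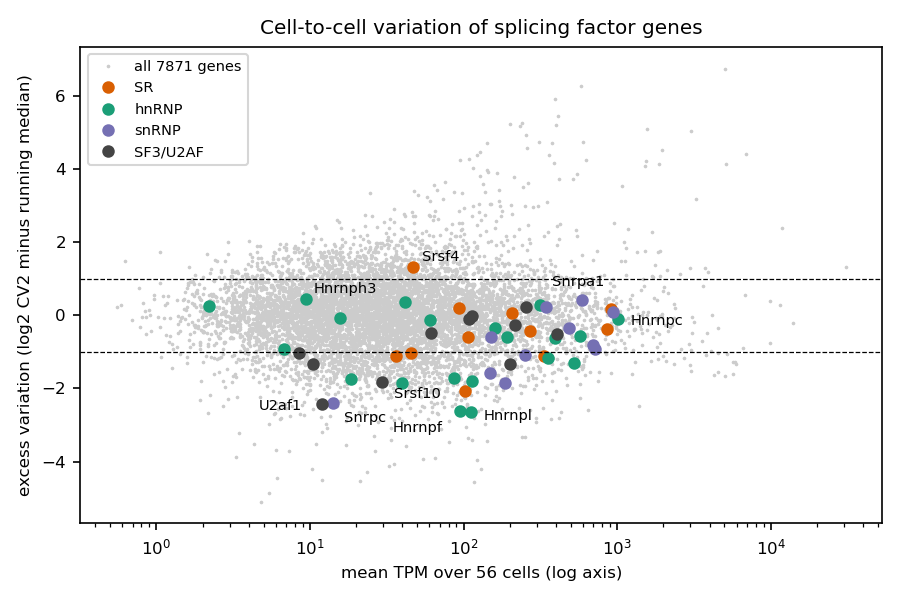
Excess variation (vertical axis, log2 CV2 minus the running median) against mean TPM (horizontal log axis) for 7871 genes, with the 53 splicing factor genes coloured by class and dashed lines at the thresholds of 1 and -1. Of the coloured points 41 lie below 0, and Srsf4 is the point above the upper line.

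Co-variation between splicing factor genes was weak. It was measured as Spearman's rho of TPM over the 56 cells, which share the unknown depth of each cell and its number of detected genes, and is given as a description with no p. The mean rho over pairs was 0.14 within the snRNP genes, 0.09 within the SR genes, 0.09 within the hnRNP genes and 0.05 within SF3/U2AF, against 0.04 over all pairs of the 7871 genes. As a partial rho given the number of genes detected, the hnRNP mean was 0.044 and the SF3/U2AF mean 0.024, while the SR mean was 0.087 and the snRNP mean 0.12, against 0.0094 over all pairs. Of the 1378 pairs among the 53 genes, 67 (4.86%) reached 0.3, against 3.11% of all gene pairs. They included 8 of 55 SR pairs, 7 of 55 snRNP pairs, 8 of 190 hnRNP pairs and 0 of 55 SF3/U2AF pairs. Between classes the mean was 0.10 for hnRNP with snRNP, 0.07 for SR with snRNP and 0.05 for SR with hnRNP genes. By gene, the mean rho with its own class was above its mean with all genes for 10 of 11 SR, 17 of 20 hnRNP, 10 of 11 snRNP and 7 of 11 SF3/U2AF genes. It was above the mean with the other splicing classes for 10 of 11 SR, 14 of 20 hnRNP, 8 of 11 snRNP and 7 of 11 SF3/U2AF genes. These counts include cell T3_2, and no such share was taken for other groups of genes.

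The Sm ring had the highest mean, 0.17 over its 21 pairs, and all of these lay above 0 (0.002 to 0.40). Snrpd1 and Snrpd2, which encode partners that bind each other in the ring, had a rho of 0.34. Snrpb and Snrpd3, another such pair, had 0.19, and Snrpe with Snrpf had 0.26. Snrpf with Snrpg had 0.17 and Snrpe with Snrpg 0.13, while the highest pair of the ring was Snrpd2 with Snrpg at 0.40. Part of this rested on cell T3_2. Without it the ring's mean was 0.13 with 3 of 21 pairs below 0, the snRNP mean was 0.09, the hnRNP mean was 0.07 and the mean for hnRNP with snRNP genes was 0.06, while the SR mean was 0.10 and the mean over all gene pairs was 0.04. Within SF3A the genes did not move together: Sf3a1 with Sf3a3 had a rho of 0.13, Sf3a2 with Sf3a3 -0.01 and Sf3a1 with Sf3a2 -0.03. U2af1 with U2af2 had 0.20.

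The 3 highest pairs each reached 0.49, and only the first lay within a class. Hnrnpl with Hnrpdl had 0.49 over 56 cells that held both, and 0.38 as a partial rho given the number of genes detected. Sf3a3 with Srsf7 had 0.49 (partial 0.49) over 51 cells that held both. Snrpd3 with Srsf5 had 0.49 (partial 0.51) over 54 such cells. Without cells T3_2 and T3_5, the cell with the most genes detected, these values were 0.46, 0.47 and 0.47. Hnrnpl with its paralogue Hnrpll had 0.44, partial 0.32, and among SR genes the highest pair was Srsf11 with Srsf6 at 0.42. The lowest pairs were Hnrnpul1 with Sf3a3 at -0.30 and Hnrnpc with Hnrnpul1 at -0.30.

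**Figure D3:**
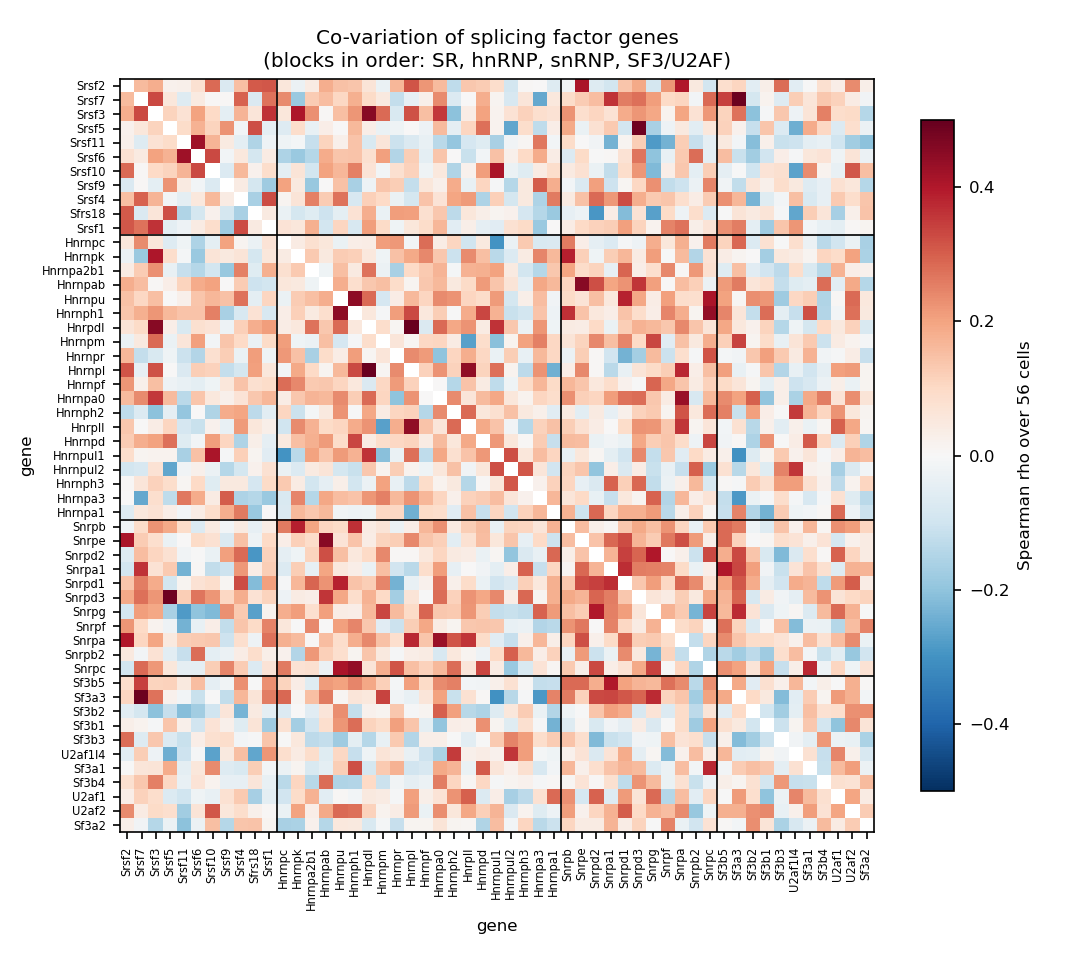
Spearman's rho over 56 cells (colour, red above and blue below 0) for every pair of the 53 genes, in blocks by class on both axes with the diagonal left blank. Colours are pale in most of the map, the snRNP block is mostly red, and single dark cells mark pairs such as Hnrnpl with Hnrpdl, Sf3a3 with Srsf7 and Snrpd3 with Srsf5.

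The promoters of these 6 genes are shown because the genes form the 3 pairs that moved together most. Each is the run of 250 bases before the start site in the RefSeq annotation of GRCm38.p6, written 5′ to 3′ on the gene's strand. Capitals mark, on either strand, CCGGAAG (a core letter string of ETS factors), CCAAT (bound by NF-Y), TTCCCGCC (E2F) and TTTGAA (the CHR element of cell cycle genes).
Hnrnpl (chr7:28810640-28810889, plus strand): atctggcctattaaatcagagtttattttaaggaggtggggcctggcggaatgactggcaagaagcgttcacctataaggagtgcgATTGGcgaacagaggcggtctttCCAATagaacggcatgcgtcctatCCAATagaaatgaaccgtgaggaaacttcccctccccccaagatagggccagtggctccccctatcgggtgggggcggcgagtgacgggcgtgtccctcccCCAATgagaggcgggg
Hnrpdl (chr5:100039223-100039472, minus strand): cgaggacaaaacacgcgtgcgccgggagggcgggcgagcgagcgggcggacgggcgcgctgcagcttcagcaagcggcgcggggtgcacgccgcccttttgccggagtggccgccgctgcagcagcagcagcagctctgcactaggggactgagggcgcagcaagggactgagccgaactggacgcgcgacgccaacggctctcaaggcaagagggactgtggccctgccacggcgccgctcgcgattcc
Sf3a3 (chr4:124714611-124714860, plus strand): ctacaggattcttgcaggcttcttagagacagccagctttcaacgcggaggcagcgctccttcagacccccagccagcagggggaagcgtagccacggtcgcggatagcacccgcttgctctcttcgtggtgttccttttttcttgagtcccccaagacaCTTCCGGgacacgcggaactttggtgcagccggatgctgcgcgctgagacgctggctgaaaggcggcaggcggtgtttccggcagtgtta
Srsf7 (chr17:80207306-80207555, minus strand): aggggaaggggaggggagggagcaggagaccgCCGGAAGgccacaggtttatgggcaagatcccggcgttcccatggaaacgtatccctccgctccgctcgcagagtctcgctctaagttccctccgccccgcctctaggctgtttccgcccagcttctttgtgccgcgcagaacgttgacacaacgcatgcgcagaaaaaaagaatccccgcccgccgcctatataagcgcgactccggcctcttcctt
Snrpd3 (chr10:75517792-75518041, plus strand): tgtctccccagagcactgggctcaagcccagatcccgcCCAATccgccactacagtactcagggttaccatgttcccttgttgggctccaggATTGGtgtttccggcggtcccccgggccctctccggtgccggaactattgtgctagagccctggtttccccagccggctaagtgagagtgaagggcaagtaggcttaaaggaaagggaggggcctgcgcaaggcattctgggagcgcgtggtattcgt
Srsf5 (chr12:80945249-80945498, plus strand): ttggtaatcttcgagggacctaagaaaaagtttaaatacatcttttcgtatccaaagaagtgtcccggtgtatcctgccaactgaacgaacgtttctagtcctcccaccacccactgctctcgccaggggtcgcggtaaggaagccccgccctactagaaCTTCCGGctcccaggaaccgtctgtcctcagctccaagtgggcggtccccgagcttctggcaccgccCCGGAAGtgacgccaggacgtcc

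Hnrnpl held 4 matches to CCAAT, at -164, -141, -117 and -16 from the start site, and Hnrpdl held no match to any of the 4 strings. Sf3a3 and Srsf7 each held 1 match to CCGGAAG, at -90 and -218. Srsf5 held 2 matches to it, at -90 and -23, and Snrpd3 held 2 to CCAAT. The members of a pair thus shared a string in 1 of the 3 pairs. Windows of 300 bases (250 before the start site to 50 after) were found for 45 of the 53 genes, all but Sfrs18, Sf3b5, Sf3b4, U2af2, Hnrpll, Hnrnpul2, Snrpb and Snrpd1. CCGGAAG occurred in 15 of 45 (33.3%), against 9.12% of 27025 promoter windows and 23.3% of the 6256 windows of genes whose variation was measured. Those 15 were 5 of 8 SF3/U2AF, 4 of 9 snRNP, 4 of 10 SR and 2 of 18 hnRNP windows. CCAAT occurred in 22 of 45 (48.9%), against 37.9% and 39.4%, with 12 of 18 in the hnRNP genes. TTCCCGCC occurred in 5 of 45 (11.1%), against 2.24% and 4.83%, in 3 SR and 2 hnRNP genes. TTTGAA occurred in 6 of 45 (13.3%), against 18.1% and 12.6%. A match is a string of letters and was not tested for binding, and in the printed runs no match overlaps another.

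The relation of splicing factor genes to cycling was weak, with class medians between 0.02 and 0.17. Cycling was scored per cell as the mean of z-scored log2(TPM + 1) over 58 G2/M genes and, separately, over 62 G1/S genes. Mki67, a gene of cycling cells and itself in the G2/M list, had a rho of 0.82 with the G2/M score, and both scores moved with the number of genes detected (rho of 0.57 and 0.49). The median rho with the G2/M score was 0.17 for hnRNP, 0.14 for snRNP, 0.13 for SF3/U2AF and 0.02 for SR genes, against 0.10 for all genes. At 0.3 or above lay 4 of 53 genes, against 8.9% of the 7817 genes outside the list. The count was 7 without set T1 (against 12% of other genes), 12 without set T2 (22.6% against 12.6%) and 7 with ranks centred by set (against 10.6%). The 4 genes were Snrpg at 0.34, Hnrnpu at 0.32, Snrpa at 0.32 and Hnrnph2 at 0.32. When the number of genes detected was held fixed by a partial rho, 0 of the 53 stayed at 0.3 or above, against 2.43% of other genes. Snrpg then had 0.29, Hnrnpu 0.25, Hnrnph2 0.10 and Snrpa 0.05.

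Snrpg, of the Sm ring, had a positive rho with the G2/M score in each of the 5 sets (0.05 to 0.64). Hnrnpu, which encodes a nuclear matrix protein that also binds RNA, averaged 357 TPM ± 225 (14 to 934, median 318) and ranged from 0.26 to 0.60 over sets. The next genes were Snrpc at 0.29, Srsf1 at 0.28, U2af1 at 0.28 and U2af1l4 at 0.28. All 4 fell to between 0.14 and 0.15 as partial values. Hnrnph2 averaged 60.6 TPM ± 105 and was detected in 44 cells.

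Srsf5 went the other way. Its rho with the G2/M score was -0.38, and it was the only splicing factor gene at -0.3 or below, where 0.32% of other genes lay. The partial rho was -0.44, a side on which 1.77% of other genes lay at -0.3 or below, and Sfrs18 at -0.30 was the other splicing factor gene there. With ranks centred by set, Srsf5 had -0.38. Set by set, it was clearly negative in T1 (-0.52), T2 (-0.77) and T5 (-0.50) and near 0 in T3 (0.06) and T4 (-0.09). It was -0.28 without set T2, and Pearson's r of log2(TPM + 1) was -0.13. The sign was thus kept when sets were pooled, though not in set T3 alone, and the size depended on sets and scale. Sfrs18 was next at -0.28, then Srsf11 at -0.13, Srsf9 at -0.12 and Snrpb2 at -0.12. Of the genes with a rho below 0, 5 were SR genes (of 11), 3 snRNP (of 11), 1 hnRNP (of 20) and 1 SF3/U2AF (of 11). Together they are 10 of 53 (18.9%), against 24.9% of all genes. The SR median of 0.02 itself changed sign with the setting, from -0.05 without set T1 to 0.10 by Pearson's r of log2(TPM + 1). SR genes also had the lowest median rho with the number of genes detected, 0.06 against 0.22 for hnRNP, 0.16 for snRNP, 0.14 for SF3/U2AF and 0.19 for all genes. With that number held fixed, the medians for the G2/M score were -0.05 for SR, 0.04 for hnRNP, 0.06 for snRNP and 0.06 for SF3/U2AF, against -0.01 for all genes.

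The G1/S score gave a like picture. Median rho was 0.16 for hnRNP, 0.15 for snRNP, 0.15 for SF3/U2AF and 0.05 for SR genes, against 0.10 for all genes. At 0.3 or above lay 5 of 53 genes, against 8.63% of other genes, and 2 did so as partial values, against 3.29%. The 5 were Hnrnpul2 at 0.37, Snrpc at 0.34, Srsf1 at 0.33, Srsf3 at 0.32 and Hnrnpa0 at 0.32. Hnrnpul2 averaged 15.7 TPM ± 40.9, was listed at 0 in most cells (detected in 24) and kept 0.36 as a partial value. Hnrnpf, at 0.26, had a partial value of 0.31. Srsf5 was again the lowest gene, at -0.28, and as partial values 0 of the 53 lay at -0.3 or below, against 1.41% of other genes. The count at 0.3 or above was 3 without cell T3_2 (against 7.97% of other genes). It was 9 without set T4 (17% against 10.2%), 9 with ranks centred by set (against 9.93%) and 9 by Pearson's r of log2(TPM + 1) (against 8.45%).

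**Figure D4:**
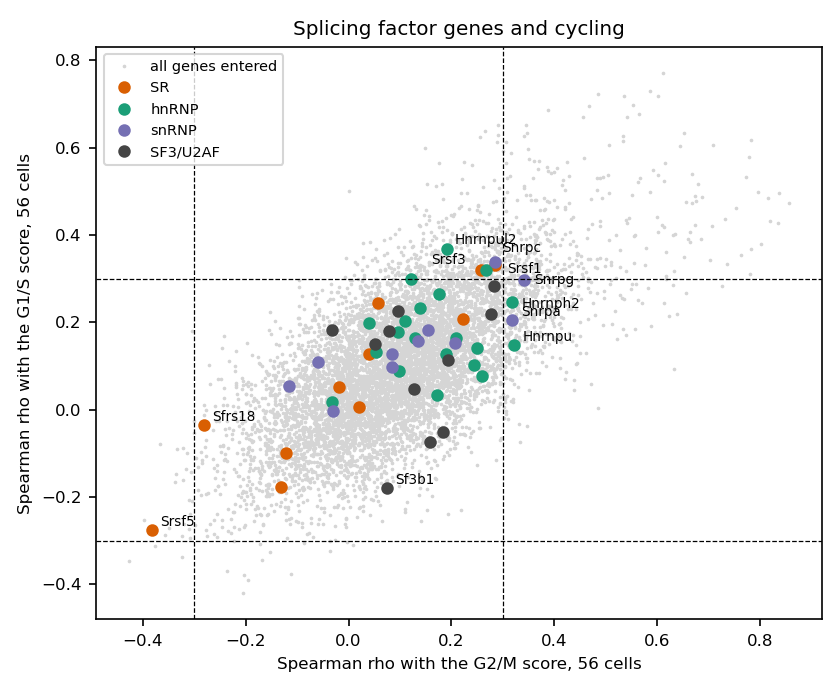
Spearman's rho over 56 cells with the G1/S score (vertical axis) against that with the G2/M score (horizontal axis), for all measured genes in grey and the 53 splicing factor genes by class, with dashed lines at 0.3 and -0.3. Of the coloured points, Srsf5 alone lies beyond -0.3 on the horizontal axis, and 4 of them lie beyond 0.3 there.

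Summed per cell, the 53 genes took 13085 TPM ± 2956 (1.31% of all TPM), with a median of 13125. The snRNP genes took 4519 TPM ± 1564, the hnRNP genes 4116 ± 1170, the SR genes 3026 ± 1005 and the SF3/U2AF genes 1423 ± 536. With the G2/M score the sums had a rho of 0.25 for hnRNP, 0.20 for SF3/U2AF, 0.16 for snRNP and -0.13 for SR genes. Taken set by set from T1 to T5, the SR values were 0.83, -0.49, 0.15, -0.35 and -0.01, so the SR sum held no direction across sets. The hnRNP values were 0.14, 0.22, 0.48, 0.28 and -0.01 in the same order. Between classes the sums had a rho of 0.37 for hnRNP with snRNP, 0.30 for hnRNP with SF3/U2AF and 0.17 for SR with hnRNP genes. Pearson's r of log2(sum + 1) was 0.81, 0.43 and 0.14 in the same order. Cell T3_2 was the lowest cell in the hnRNP, snRNP and SF3/U2AF sums. Correlations of sums between classes were not taken without it, nor for sums of other genes.

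**Figure D5:**
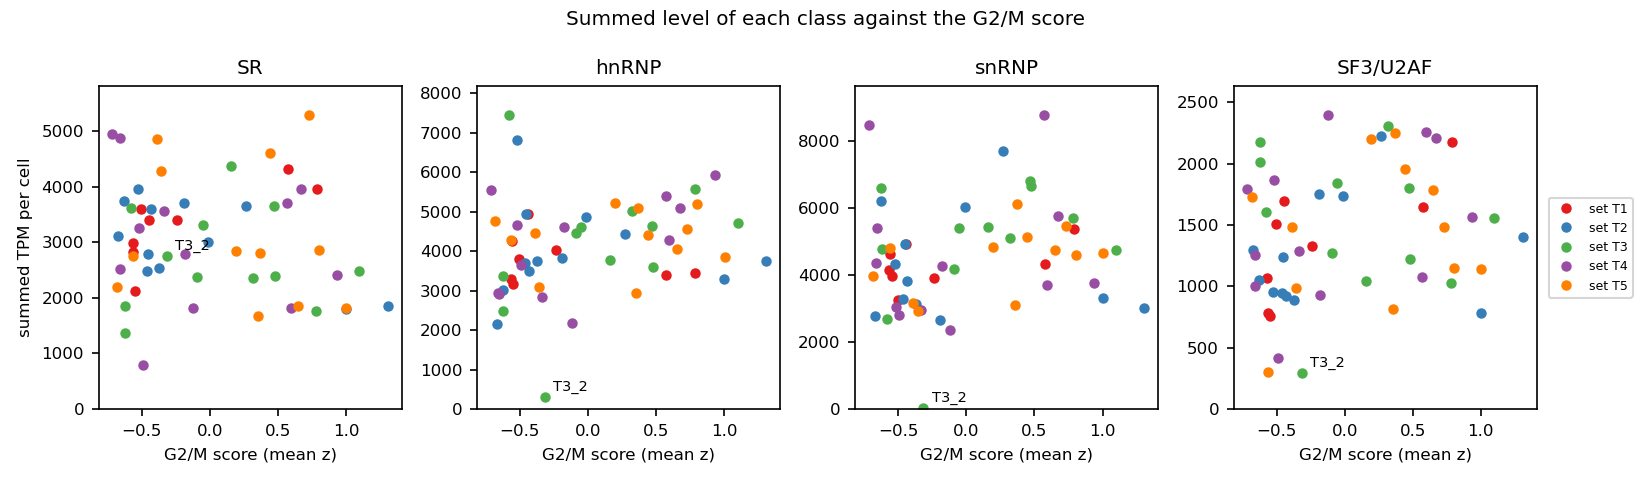
Summed TPM of each class per cell (vertical axes, 1 panel a class) against the G2/M score (horizontal axes, mean z), with the 56 cells coloured by set. No panel shows a clear trend, and cell T3_2 lies at the bottom for the hnRNP, snRNP and SF3/U2AF genes but in the middle of the SR range. Srsf11 alone gives 1784 of the 2754 TPM of its SR sum.

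Cell T3_2 held 26 TPM in snRNP genes, where the next lowest cell held 2367, and 315 TPM in hnRNP genes, where the next lowest held 2161. Its Sm ring sum was 11 TPM, against 1839 in the next lowest cell. Its SR sum of 2754 TPM lay within the range of the other cells, but Srsf11 alone gave 1784 TPM of it. Only 4 of 11 SR genes were above their median in the other cells. Srsf2 stood at 20 TPM (median elsewhere 704) and Srsf3 at 2 TPM (median elsewhere 299). By gene, 8 of 11 snRNP, 10 of 20 hnRNP, 4 of 11 SF3/U2AF and 2 of 11 SR genes were listed at 0 there. Together these are 24 of 53 genes, against a median of 6 and a highest count of 16 in the other cells. In the same cell 3096 genes were detected, within the range of the other cells. The rest, 70.7% of all genes of the table, were listed at 0, against a median of 55.04% in the others. Cells T4_3 and T3_3 detected fewer genes (2679 and 2906) and held 20772 and 15351 TPM in the 53 genes. The sum was 3390 TPM in cell T3_2. For 15 of the 53 genes the value was lower than in each of the other cells.

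The genes at or near 0 there included some that were high in all other cells. Hnrnpc stood at 15 TPM in cell T3_2 against 160 to 2772 elsewhere. Hnrnpk was listed at 0 against 75 to 1979, and Snrpe at 0 against 180 to 1598. Snrpb stood at 7 TPM against 198 to 3369. In the opposite direction, Srsf11 stood at 1784 TPM against 11 to 451 elsewhere, and Sf3a2 at 103 TPM against 0 to 55. Srsf10 at 234 TPM (median elsewhere 87) and Srsf6 at 210 TPM (median 49) were above the middle of the other cells. The summed levels without this cell were 4601 TPM ± 1453 for snRNP and 4186 TPM ± 1059 for hnRNP genes. The part of the high share of genes listed at 0 in the profile of this cell was not tested.

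A list of 177 further splicing genes (other snRNP and LSm proteins, helicases and catalytic-stage proteins, exon junction proteins, assembly factors, SR protein kinases and phosphatases, and other regulators) gave the wider setting. The table held 169 of them, and variation was measured for 168. Their median mean level was 63.5 TPM, below the 149 TPM of the 53 genes and above the 17.8 TPM of all genes. The highest were Ppp1ca, a catalytic subunit of protein phosphatase 1, at 827 TPM ± 780, and Lsm3, of the LSm rings, at 479 ± 482. Next came Eif4a3 at 419 ± 355 and Magoh at 392 ± 377, both of the exon junction complex. Their median excess variation was -0.48. Below -1 lay 54 of 168 (32.1%), against 15.1% of all genes and 39.6% of the 53, and 12 lay above 1, against 13.1% of all genes. Below 0 lay 72.0% of them and 77.4% of the 53. Low variation for their level was thus shared by both groups. Khsrp at -4.11 and Rbm3 at -3.12 were the most even.

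At the other end were 2 kinases that phosphorylate splicing factors, Clk2 at 5.22 and Cdk11b at 4.71. Each rested on cell T3_2, which held 93.3% of the summed TPM of Clk2 (10440 TPM against a median of 1) and 61.5% of that of Cdk11b (12996 TPM against a median of 74). Without that cell their values were -0.52 and -0.04. The related kinase Cdk13, chosen after its values were seen, had 80.4% of its TPM in the same cell, and Ppp1ca too had its highest value there, 4099 TPM.

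At 0.3 or above with the G2/M score lay 21 of the 168 genes (12.5%), against 8.9% of other genes, and 5 (2.98%) did so as partial values, against 2.43%. The highest were Snrnp27 of the tri-snRNP at 0.54, Lsm2 at 0.51, Khsrp at 0.48, the spliceosomal isomerase Ppil1 at 0.46 and Lsm3 at 0.45. As partial values these were 0.29, 0.41, 0.41, 0.29 and 0.38. Each of the 5 was above the highest of the 53 genes, Snrpg at 0.34. The median rho of the 168 genes was 0.14, next to 0.13 for the 53 genes.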

How the data were processed

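The authors deposited a table of TPM for 56 cells, rounded to whole numbers and treated here as a score (column sums of 999202 to 999914), so depth is unknown. Per the submitters' processing notes the build was mm9 and the tools FastQC, Bowtie 0.12.2 and Cufflinks; their settings are not given in the sources used here. A gene was detected at 1 TPM, and variation and correlation used genes detected in at least 10 cells. Spearman's rho was recomputed as a partial rho given genes detected and with ranks centred by set, and a rho at 0.3 or beyond was called. Scripts used Python 3.11.15, numpy 2.4.6, scipy 1.17.1 and pandas 2.3.3 and were tested on simulated data. The members and lists were chosen with earlier results of these data known. Full values are given for the highest genes of each class, the extremes of each measure and the sub-complexes named in the text. No test was run, since the cells are 1 sample. Alternatives left out sets or cells, or changed filters, scales and scores. The bulk sample of pooled cells was not used.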

Additional observations from a re-analysis of the deposited data

How the results depend on the processing

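No paired analysis was possible because the cells form 1 group. Of the alternatives to the class medians, pair means, counts and sums, 456 values stayed within a set limit and 39 moved. The limit was the SD between sets each run alone for medians and pair means, and 1.5 times for counts. For sums it was the SD over cells, and for the percent detected in every cell a 95% binomial interval. The excess by the SD of log2(TPM + 1) was held to the same limits, though its unit differs from that of log2 CV2. Its part of the 456 and 39 values is thus no sign of stability or of change. A set alone holds 8 or 12 cells, so the SD between sets is wide. Staying within it is therefore a weak sign of stability. The SR medians with the cycling scores lie near 0 and changed sign: they ranged from -0.052 to 0.0954 with G2/M (below 0 without set T1, as partial rho, and with the score from genes in at least 20 cells or from log2(TPM + 10)) and from -0.0209 to 0.194 with G1/S (below 0 without set T5 and as partial rho). Without set T1 and T2, members at 0.3 or above with the G2/M score numbered 7 and 12. Without set T3 and T5 the hnRNP median excess was -0.952 and -0.962. Without T5, or with genes in at least 20 cells, 2 members lay above 1 (share of all genes not taken). Without set T4, members at 0.3 with the G1/S score numbered 9, and without cell T3_2 they numbered 3. Without T3_2 and T3_5 (chosen after seeing the data) they numbered 2 (share of all genes not taken). Detection at 5 TPM left 20.8% of members in every cell, with cell T3_2 included. The share of all genes at 5 TPM was not taken. The median over cells put the SF3/U2AF level at 24 TPM. With the SD of log2(TPM + 1), in its own unit, the median excess was -0.30 for snRNP and -0.30 for SF3/U2AF. On it 0 members lay above 1 and 12 below -1 (share of all genes not taken). Without each gene's highest cell it was -0.83 for hnRNP and -0.37 for SF3/U2AF. With ranks centred by set, 7 (G2/M) and 9 (G1/S) members reached 0.3. As partial rho, 0 and 2 did, the hnRNP median with G2/M was 0.0373, and the SF3/U2AF pair mean was 0.0238. Pearson's r of log2(TPM + 1) gave pair means of 0.13 (SR with snRNP), 0.22 (hnRNP with snRNP) and 0.35 (snRNP), a G1/S median of 0.19 for SR, and 9 members at 0.3. With log2(TPM + 10) these means were 0.10, 0.17 and 0.27, with 1 (G2/M) and 8 (G1/S) members. The share of all genes was not taken for that scale, so its counts cannot be set against other genes. Without cell T3_2 the Pearson means were 0.07, 0.08 and 0.12.

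Leaving out the members that share 20% or more of their words with other genes (chosen after seeing the data) gave medians of 483 TPM (snRNP) and 200.4 TPM (SF3/U2AF), a hnRNP excess of -0.879, 0 members above 1, a SF3/U2AF pair mean of 0.0117 and 2 members at 0.3 with G2/M. The share of all genes was not taken for these counts. Among single genes, the excess of Clk2 turned to -0.17 without set T3, -0.52 without T3_2, -0.52 without T3_2 and T3_5, -0.26 without its highest cell and -0.24 by the SD of log2. That of Cdk11b turned to -0.0444, -0.0902 and -0.104 without T3_2, without both cells and by the SD of log2. By the SD of log2, Sf3a2 turned to 0.0395 and Srsf4 to -0.0182. The cause was not tested for the other changes. Unknown depth limits every value near 0.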
